A study of Homo sapiens with 5 samples.

Results

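The genes described are the membrane metalloproteases ADAM9, ADAM10, ADAM12, ADAM15, ADAM17, ADAM19 and MMP14 and the tissue inhibitors TIMP1, TIMP2 and TIMP3. They were chosen by gene symbol, with the fold changes of this comparison already known, and 10 of the 27477 rows of the authors' deposited table carry these symbols. RNA-seq compared gefitinib drug-tolerant PC9 cells (2 libraries) with parental PC9 cells (3 libraries). PC9 is an established human line of lung adenocarcinoma whose growth relies on a mutant EGFR, the kinase that gefitinib inhibits. The drug-tolerant cells had 50 nM gefitinib for 6 days and then growth media for 3 days. The labels name the other cells only as parental, and every group was grown in RPMI with fetal bovine serum. The labels do not say whether libraries came from separate cultures, so p-values measure the spread between these libraries only, which may be technical.

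ADAM proteases are membrane-anchored enzymes that cut the outer part off other membrane proteins, a step called shedding, and thereby release growth factors, cytokines and adhesion molecules. ADAM10 and ADAM17 are the main sheddases of the EGFR ligand family, and ADAM17 is also known as TACE because it releases tumour necrosis factor. MMP14 is a membrane-bound matrix metalloprotease that cuts collagen and activates the secreted gelatinase MMP2. The TIMP proteins block matrix metalloproteases, and TIMP3, which stays bound to the matrix, also blocks several ADAM enzymes, ADAM17 among them. These enzymes are controlled largely as proteins, through removal of a prodomain, transport and inhibitors, and RNA levels do not measure activity.

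Of the 10 genes, the inhibitor TIMP3 and the protease ADAM12 passed an adjusted p of 0.05 (DESeq2) in the authors' deposited table as higher in drug-tolerant cells, and 0 passed as lower. Over all genes tested, 0.263% were called higher and 0.289% lower, 0.552% in either direction. Because this same contrast was known when the genes were chosen, the counts are a description and no inference is drawn from them. The members spread widely, with log2 fold changes that ran from -0.79 to 1.31 in the authors' deposited table, 5 above 0 and 5 below. Their median was -0.13, against -0.02 over the 15223 genes with an adjusted p.

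The promoter windows of TIMP3 and ADAM12, the genes called higher, and of MMP14, the member with the lowest fold change, are shown so that the start regions of the genes at both ends can be compared. Each spans 300 bases around the RefSeq gene start, most of them before it, and reads 5′ to 3′ on the gene's strand. The GC box, GGGCGG or its reverse complement, is in capitals. The windows are chr22:32801455-32801754 on the plus strand for TIMP3, chr10:126388428-126388727 on the minus strand for ADAM12 and chr14:22836335-22836634 on the plus strand for MMP14, all GRCh38.p14.
TIMP3: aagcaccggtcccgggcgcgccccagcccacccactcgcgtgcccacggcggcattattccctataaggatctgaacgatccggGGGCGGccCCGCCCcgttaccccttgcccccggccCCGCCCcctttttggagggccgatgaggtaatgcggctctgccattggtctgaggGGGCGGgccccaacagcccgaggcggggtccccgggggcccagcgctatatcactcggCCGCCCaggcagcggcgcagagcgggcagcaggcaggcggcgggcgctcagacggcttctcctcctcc
ADAM12: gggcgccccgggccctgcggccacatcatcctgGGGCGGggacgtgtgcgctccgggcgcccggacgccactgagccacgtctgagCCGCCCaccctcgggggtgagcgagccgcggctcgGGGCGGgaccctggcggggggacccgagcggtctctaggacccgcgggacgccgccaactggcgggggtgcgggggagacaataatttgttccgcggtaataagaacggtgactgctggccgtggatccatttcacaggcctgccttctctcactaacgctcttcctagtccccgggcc
MMP14: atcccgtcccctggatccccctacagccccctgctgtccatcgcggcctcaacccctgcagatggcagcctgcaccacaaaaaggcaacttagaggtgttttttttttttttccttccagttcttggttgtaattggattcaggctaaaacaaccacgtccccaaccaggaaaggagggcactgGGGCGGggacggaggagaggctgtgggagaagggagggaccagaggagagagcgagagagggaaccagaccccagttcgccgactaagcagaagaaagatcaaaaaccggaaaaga

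The windows of TIMP3 and ADAM12 were 72.7% and 71.0% G or C, with 31 and 33 CpG dinucleotides. MMP14 had 55.0% and 10 CpG, and the median of all 35116 RefSeq windows was 58.7% and 14.0 CpG. The GC box was found 5 times for TIMP3, 3 times for ADAM12 and 1 time for MMP14, searching both strands, and 45.0% of all windows hold at least 1. Among the 8 members with a RefSeq window that was read, ADAM15 had the most GC boxes (6) and ADAM19 had 0. The AP-1 motif TGANTCA was in 0 of the 8 windows and in 7.71% of all windows. The TATA box TATAAA was also in 0 of the 8, against 11.5% of all windows. CCAAT on either strand was present in the windows of TIMP3 and MMP14, against 34.6% of all, and the TEAD motif GGAATG in ADAM17 alone, against 14.0% of all. In the printed windows no CCAAT match overlaps a GC box, and a match is a stretch of letters, not a bound site. The windows of ADAM15 and ADAM19, genes with negative fold changes in the authors' deposited table, were 79.3% and 75.7% G or C.

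The deposited file holds a mean level over the 5 libraries for each gene, in normalized reads (reads divided by the library's size factor), and no values per library for the 10 members. Reads per library could be worked out only for genes with a mean level under 10, because a low mean can be split into whole reads, each worth a fixed step in its library. All 12705 such genes were resolved in exactly 1 way, and they fix the sign of the fold change: positive values are higher in drug-tolerant cells. The libraries found in this way are called drug-tolerant a and b and parental a, b and c, since nothing ties them to the numbered samples. Their depths were estimated at 14.2 to 21.4 M reads, from each library's size factor and the total of the mean levels. The parental libraries did not lie together in these low genes. Parental b and c did not differ beyond sampling noise (chi-square per degree of freedom 1.05 over 1423 genes, p = 0.0961 for counting error only). Drug-tolerant a and b were nearly as close, at 1.10 over 1972 genes (chi-square for counting error only, p = 0.0010). Low counts cannot tell 1 RNA from 2 similar cultures, and the deposited comparison counts each of these pairs as 2 libraries. Chi-square per degree of freedom was 1.36 and 1.44 for parental a with drug-tolerant a and b, against 3.36 and 3.42 with parental b and c. With parental b and c, drug-tolerant a had 3.36 and 3.28, and drug-tolerant b had 3.04 and 3.03. The ratio of reads from transcripts over 4 kb to reads from transcripts under 2 kb was 0.998 and 0.880 in the drug-tolerant libraries, against 0.974, 0.616 and 0.610 in parental a, b and c. No member's fold change can be given without parental a or with parental b and c merged, since the members have no values per library.

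Epithelial markers were strongly expressed, with a mean level of 35758 for KRT8 and 8755 for EPCAM in the authors' deposited table. Of the 7 epithelial markers listed, 6 had negative fold changes, CDH1 had a positive one, and 0 were called. KRT7 and KRT19 had log2 values (± SE) of -0.60 ± 0.29 and -0.56 ± 0.29 in the authors' deposited table. CLDN4 was at -0.33 ± 0.28 and CDH1 at 0.40 ± 0.27 in the authors' deposited table. Of 7 fibroblast markers 4 had no row, and COL1A1, at 0.04 ± 0.30 (log2 fold change ± SE; -0.27 with the length and GC content trend taken out), had the highest mean, 162, in the authors' deposited table. The other 2, THY1 and PDGFRB, had 4 and 2 recovered reads in all 5 libraries together. Of 5 blood cell markers 2, PTPRC and CD3E, had no row, and the highest of the other 3 was ITGAM, with a mean level of 25.9 in the authors' deposited table, against 19 recovered reads in all for CD14 and 4 for SPI1. Of 5 endothelial markers 2 had no row, and CDH5, an endothelial cadherin, had 0.36 ± 0.26 at a mean level of 253 in the authors' deposited table. CLDN5 and VWF, the rest of that list, had 14 and 35 recovered reads in all 5 libraries together. Their log2 values were 0.21 and -0.04 in the authors' deposited table. The part of these markers in the results was not tested.

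TIMP3 was the most abundant member and rose 2.05-fold. TIMP3 (ENSG00000100234; chromosome 22, 32801701 to 32863043, plus strand, GRCh38) had a mean level of 15454 normalized reads in the authors' deposited table, higher than 99.2% of the genes with an adjusted p. From the mean and the fold change its level was estimated at 22318 normalized reads in drug-tolerant cells and 10878 in parental cells. The log2 fold change was 1.04 ± 0.23 (SE), with a 95% interval of 0.58 to 1.49 and an adjusted p of 0.0051 (DESeq2) in the authors' deposited table. The call was kept when a trend of fold change with transcript length and GC content was taken out (adjusted p 0.017) and lost when the Wald scores were centred and scaled (adjusted p 0.97), both described with the transcript lengths. In bulk RNA, a change in the share of cells that make a transcript and a change in RNA per cell cannot be told apart. TIMP3 lies inside the synapsin gene SYN3, which runs on the opposite strand. SYN3 had 3 and 0 recovered reads in drug-tolerant a and b, against 4, 0 and 0 in parental a, b and c, so reads of the host gene were below 0.01% of the TIMP3 level.

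TIMP1 and TIMP2, the secreted and widely expressed inhibitors, were not called. The authors' deposited table put TIMP1 (ENSG00000102265; chromosome X, 47582313 to 47586789) at -0.52 ± 0.36 (log2 fold change ± SE) with a 95% interval of -1.23 to 0.19 and an adjusted p of 0.53 (DESeq2). For TIMP2 (ENSG00000035862; chromosome 17, 78852977 to 78925387), which also takes part in MMP2 activation on the cell surface, the values in the authors' deposited table were -0.32 ± 0.28, -0.87 to 0.24 and 0.60 (DESeq2). Estimated levels were 348 in drug-tolerant and 499 in parental cells for TIMP1, and 2619 in drug-tolerant and 3264 in parental cells for TIMP2. Per kilobase of transcript, TIMP3 made up an estimated 82.4% of the 3 inhibitors in drug-tolerant cells, against 63.7% in parental cells. The summed level per kilobase of the 3 was estimated at 5884 in drug-tolerant and 3712 in parental cells, with no error, because values per library are lacking. Both the shares and the sum use the longest coding transcript. With the median coding length, the mean level per kilobase was 700 for TIMP1 and 884 for TIMP2, against 400 and 823 with the longest. For TIMP3 it was 3357 with either length. TIMP1, like TIMP3, is nested in a synapsin gene, SYN1, which had 2 recovered reads in all.

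ADAM12 rose 2.48-fold and had the lowest mean level of the 6 ADAM members. ADAM12 (ENSG00000148848; chromosome 10, 126012381 to 126388455, minus strand, GRCh38) is a protease made in long membrane-bound and short secreted forms, best known from muscle, placenta and tumour stroma, and able to shed HBEGF and cut IGF-binding proteins. Its mean level was 452 normalized reads in the authors' deposited table, higher than 57.1% of the genes with an adjusted p. The estimates were 703 in drug-tolerant and 284 in parental cells. A log2 fold change of 1.31 ± 0.32 (SE) stood in the authors' deposited table, with a 95% interval of 0.69 to 1.93 and an adjusted p of 0.012 (DESeq2). This call was lost with the length and GC content trend taken out (adjusted p 0.11), with the Wald scores centred and scaled (adjusted p 0.97) and at a stricter adjusted p of 0.01. The table is by gene and does not separate the long from the short form. Despite the rise, ADAM12 was an estimated 2.28% of the summed level per kilobase of the 6 ADAM members in drug-tolerant cells, against 0.957% in parental cells. These shares use the longest coding transcript and depend on that choice. With the median coding length, the mean level per kilobase was 136 for ADAM12 and 8425 for ADAM10, against 56.9 and 443 with the longest.

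The fold changes of the abundant sheddases were near 0. In the authors' deposited table, the log2 fold change of ADAM17 (chromosome 2) was 0.06 ± 0.27, with a 95% interval of -0.47 to 0.58 and an adjusted p of 0.93 (DESeq2). For ADAM10 (chromosome 15), which also cuts Notch receptors and cadherins, the authors' deposited table gave 0.23 ± 0.30, with an interval of -0.35 to 0.82 and an adjusted p of 0.71 (DESeq2). ADAM9 (chromosome 8), a broadly expressed protease, had 0.26 ± 0.31 there, and its interval in the authors' deposited table was -0.35 to 0.87, with an adjusted p of 0.68 (DESeq2). Neither the sign for ADAM10 nor that for ADAM17 held when the trend with length and GC content was taken out, with log2 values of -0.13 for ADAM10 and -0.04 for ADAM17, while ADAM9 then had 0.22. The intervals of the deposited values end below a doubling, a log2 fold change of 1, but include smaller changes. Deposited fold changes are understated in low genes. Whether those of these abundant genes are understated too was not tested, so a doubling is not excluded. Estimated levels were 1961 normalized reads in drug-tolerant and 1887 in parental cells for ADAM17, 5556 in drug-tolerant and 4735 in parental cells for ADAM10, and 7276 in drug-tolerant and 6062 in parental cells for ADAM9.

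ADAM15, ADAM19 and MMP14 had negative fold changes and were not called. ADAM15 (chromosome 1), a protease whose disintegrin part binds integrins, was at -0.36 ± 0.26 in the authors' deposited table, where DESeq2 gave an adjusted p of 0.53. ADAM19 (chromosome 5), a sheddase of neuregulin, had -0.55 ± 0.31, and its 95% interval in the authors' deposited table was -1.17 to 0.07, with an adjusted p of 0.49 (DESeq2). The authors' deposited table put MMP14 (ENSG00000157227; chromosome 14, 22836557 to 22849027) at -0.79 ± 0.29, with an interval of -1.36 to -0.22 and an adjusted p of 0.29 (DESeq2). MMP14 had the lowest level of the 10, a mean of 90.4, with estimates of 62.9 in drug-tolerant and 109 in parental cells. Its interval lies below 0 without adjustment, and 348 genes had a smaller p than MMP14 in the authors' deposited table.

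**Figure D1:**
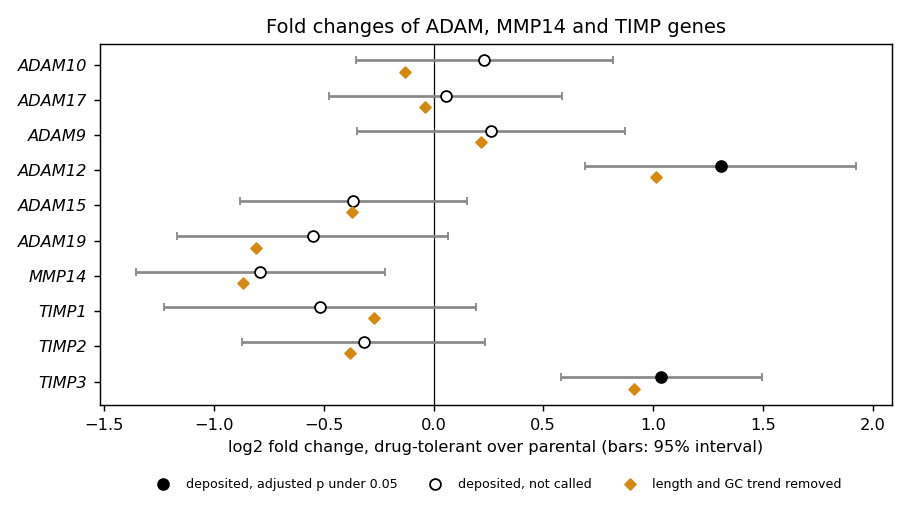
Log2 fold changes (x axis, drug-tolerant over parental) of the 10 genes, with bars for the 95% interval; filled circles have an adjusted p under 0.05 in the authors' deposited table, open circles do not, and diamonds are the values with the length and GC trend taken out. ADAM12 (1.31) and TIMP3 (1.04) stand to the right of the others, and MMP14 (-0.79) is farthest to the left.

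Levels of different genes were compared per kilobase of the longest protein-coding transcript. TIMP3 had 3357 normalized reads per kilobase as the mean of all libraries, ADAM9 had 1706, ADAM15 969, TIMP2 823, ADAM10 443, ADAM17 434, TIMP1 400, ADAM19 193, ADAM12 56.9 and MMP14 24.2. The order of neighbours such as ADAM10, ADAM17 and TIMP1 cannot be judged, since no spread between libraries is available. ADAM10 depended most on the transcript used: with the median length of its coding transcripts, which include short fragments, it had 8425 normalized reads per kilobase.

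**Figure D2:**
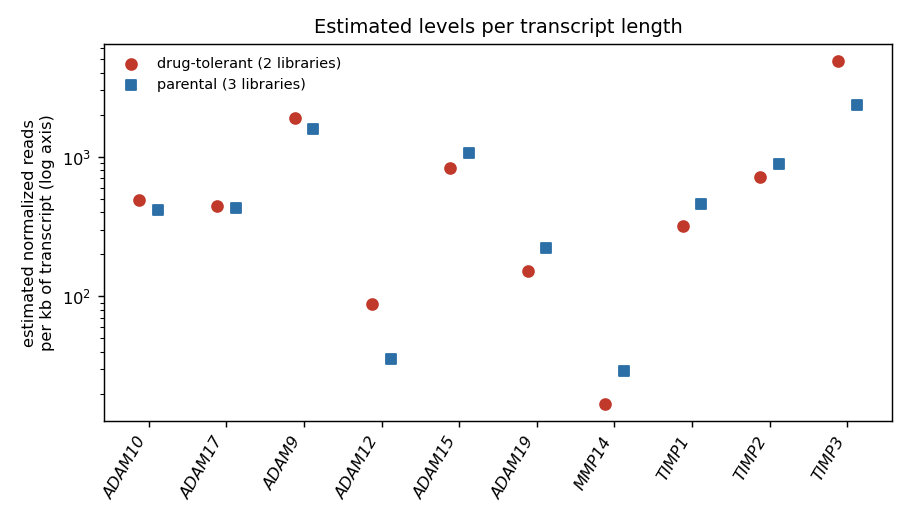
Estimated normalized reads per kilobase of transcript (log y axis) for drug-tolerant (circles) and parental (squares) cells, computed from the mean level and fold change of the authors' deposited table, with no error bars because values per library are lacking. TIMP3 stands highest, at 4849 in drug-tolerant and 2363 in parental cells, and MMP14 lowest, at 16.9 in drug-tolerant and 29.1 in parental cells.

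Fold changes over all genes rose with transcript length. Over 12461 protein-coding genes with an adjusted p, Spearman's rho between length and log2 fold change was 0.54 in the authors' deposited table, a value across genes, which share libraries and are not replicates. Over the 10 members rho was 0.52, a description without a test. Some members of similar length differed in fold change. ADAM12, with a longest coding transcript of 7938 nucleotides, was 0.92 above the median of its length group (0.38), the last of 10 groups of equal size. TIMP3, with 4603 nucleotides, was 0.93 above its group median of 0.11. TIMP1, the shortest at 1095 nucleotides, was within 0.02 of its group median of -0.50. ADAM19 was 0.84 below the median of its group at 6481 nucleotides, ADAM10, the longest at 11431, was 0.15 below its own, and MMP14 was 0.82 below the median of its group at 3732. When a smooth trend with length and GC content was removed, TIMP3 kept an adjusted p under 0.05, with a log2 value of 0.91 and an adjusted p of 0.017. ADAM12 then had 1.01 and an adjusted p of 0.11 and was no longer called. After the Wald scores (fold change over its standard error) were centred and scaled by their robust SD, each of the pair had an adjusted p of 0.97, and 1 gene of all those tested was called.

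**Figure D3:**
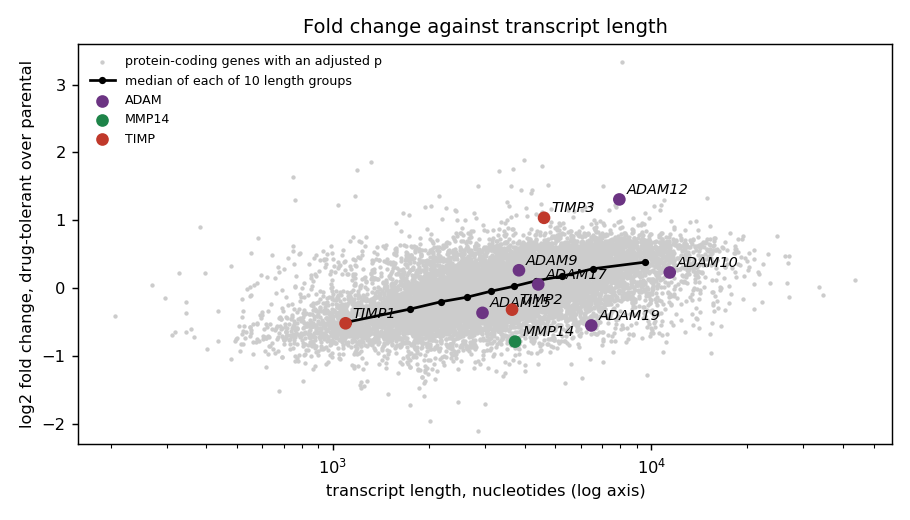
Log2 fold change (y axis, drug-tolerant over parental) against the length of the longest coding transcript (log x axis) for protein-coding genes with an adjusted p (grey), the medians of 10 length groups (line) and the 10 members (coloured by family). TIMP1 sits on the line, TIMP3 and ADAM12 lie above it, and ADAM19 and MMP14 lie below it.

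Among relatives, partners and substrates listed by their known roles, 1 gene was called. The TNF receptor gene TNFRSF1B, whose product is shed by ADAM17, rose in drug-tolerant cells, with a log2 value of 1.75 ± 0.35 in the authors' deposited table, where DESeq2 gave an adjusted p of 0.00061 at a mean level of 42.4. With the length and GC trend removed it was at 1.68 with an adjusted p of 0.0015, and with the Wald scores centred and scaled the call was lost (adjusted p 0.78). The other TNF receptor, TNFRSF1A, was at -0.21 ± 0.28 in the authors' deposited table. TNF itself had 1.76 and 1.27 normalized reads in drug-tolerant a and b, against 6.72, 7.86 and 5.20 in parental a, b and c. The drug-tolerant libraries of TNF lay below all parental ones, at 24 recovered reads in all, and TNF had no adjusted p. Such a pattern is common here: of all 2565 low genes with at least 20 recovered reads, 12.7% lay wholly lower and 16.3% wholly higher.

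Other shed proteins and the ligands of the ERBB receptors were not called. Of the 25 other substrates listed, TNFRSF1B included, 20 had an adjusted p, 14 of them with a positive and 6 with a negative log2 fold change, and in the authors' deposited table their median was 0.30 (0.15 after the trend was removed). NOTCH1 and NOTCH3, receptors cut by ADAM10, were at 0.68 ± 0.38 and 0.58 ± 0.33 in the authors' deposited table, against 0.24 for NOTCH1 and 0.17 for NOTCH3 after the trend was removed. AXL, a receptor kinase that is also shed, was at -0.75 ± 0.30, with an adjusted p of 0.37 (DESeq2) in the authors' deposited table. Of the ERBB ligands 9 had an adjusted p, and in the authors' deposited table their median was 0.43. Among them HBEGF, a substrate of ADAM12 and ADAM17, was at 0.75 ± 0.22 with an adjusted p of 0.082 and EREG at 0.82 ± 0.28 with 0.21 (DESeq2) in the authors' deposited table.

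Partners of the sheddases were not called either. Tetraspanins of the TspanC8 group bind ADAM10 and guide it to the membrane, and 5 of the 6 had negative fold changes, and in the authors' deposited table the median was -0.41. TSPAN15 was at -0.73 ± 0.30 and TSPAN5 at -0.42 ± 0.21, with adjusted p of 0.38 and 0.46 (DESeq2) in the authors' deposited table. The ADAM17 partners RHBDF2 and RHBDF1, inactive rhomboid proteins needed for its transport, were at 0.23 ± 0.27 and 0.12 ± 0.26 in the authors' deposited table. Of the proprotein convertases, which can remove ADAM prodomains, FURIN was at -0.13 ± 0.24 and PCSK5 at 1.11 ± 0.31 in the authors' deposited table, PCSK5 with an adjusted p of 0.060 (DESeq2). With the length and GC trend removed PCSK5, whose longest coding transcript has 9538 nucleotides, was at 0.74 with an adjusted p of 0.42.

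Other protease inhibitors of the cell surface and matrix had negative fold changes that were not called. RECK, a membrane-anchored inhibitor of matrix metalloproteases, was at -0.74 ± 0.36 in the authors' deposited table, where DESeq2 gave an adjusted p of 0.45 and a mean level of 35.0. TIMP4, at a mean level of 219, had -0.23 ± 0.30 in the authors' deposited table and -0.07 after the trend was removed. SPINT1 and SPINT2, which block serine proteases rather than metalloproteases, had -0.13 ± 0.20 and -0.30 ± 0.30 in the authors' deposited table. Of the 3 member TIMP genes, 2 lay below 0 in the authors' deposited table and TIMP3 above it.

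Of the other ADAM genes, 7 of 15 had a row and 4 an adjusted p, with 0 called. ADAM8, known from leukocytes and tumours, was at 0.70 ± 0.27 in the authors' deposited table, where DESeq2 gave an adjusted p of 0.35. The 5 secreted ADAMTS proteases with an adjusted p were all positive, with a median of 0.64 (0.40 once the trend with length and GC content was taken out), and ADAMTS15 reached 1.04 ± 0.34 with an adjusted p of 0.18 (DESeq2) in the authors' deposited table. Among other matrix metalloproteases MMP28, at a mean level of 33.5, had 1.21 ± 0.36 and an adjusted p of 0.082 (DESeq2) in the authors' deposited table. Removal of the length and GC trend brought MMP28 to 1.33 and an adjusted p of 0.044.

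**Figure D4:**
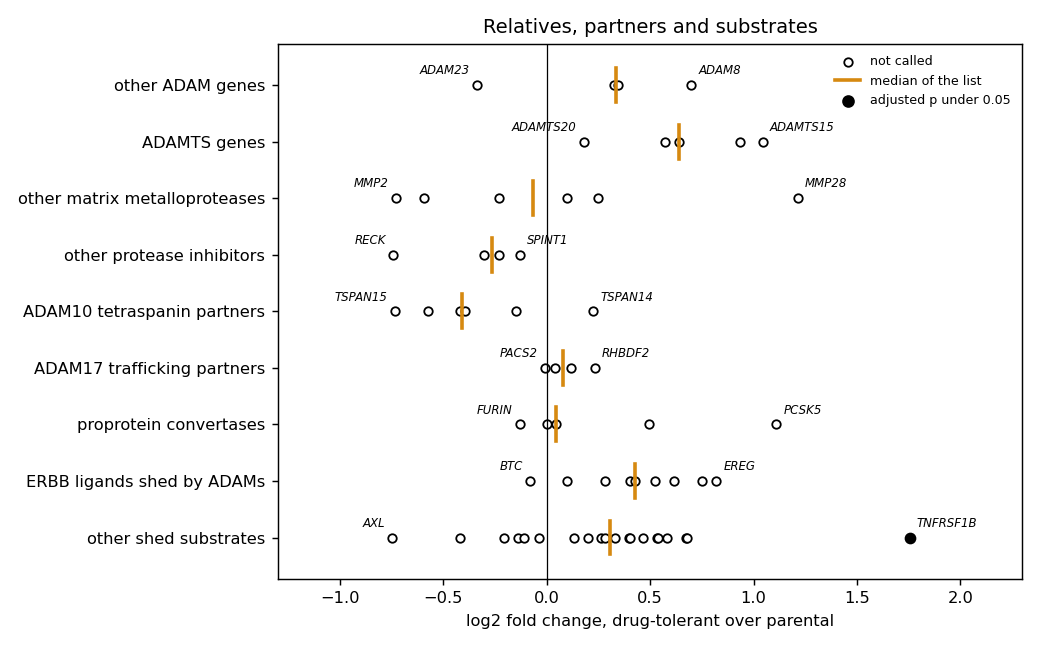
Log2 fold changes (x axis, drug-tolerant over parental) of genes with an adjusted p in 9 lists of relatives, partners and substrates (rows), with the lowest and highest gene of each list named. TNFRSF1B, at 1.75, is the filled point with an adjusted p under 0.05, and vertical bars are list medians.

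Values per library were available for the rarest relatives. Of the other ADAM, ADAMTS and matrix metalloprotease genes, 26 had a mean level under 10, and 12 of these had at least 20 recovered reads. MMP2, the gelatinase that MMP14 activates, had 4.41 and 3.80 normalized reads in drug-tolerant a and b, against 7.55, 14.7 and 17.7 in parental a, b and c. The highest drug-tolerant library of MMP2 was below the lowest parental one, parental a, and the deposited adjusted p was 0.49 (DESeq2) with a change of -0.73 ± 0.41 on that scale in the authors' deposited table. MMP11 had 5.29 and 5.07 normalized reads in drug-tolerant a and b, against 15.9, 8.85 and 12.5 in the parental libraries, again without overlap. ADAMTS14, a procollagen-processing protease, had 15.0 and 12.7 normalized reads in drug-tolerant a and b, against 4.20, 0 and 4.16 in the parental libraries. These were the 3 of 12 without overlap, 1 higher and 2 lower in drug-tolerant cells. Over all 2565 low genes with at least 20 recovered reads, 16.3% lay wholly higher and 12.7% wholly lower, so such a count is common here.

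In several of the 12, parental a stood apart from parental b and c. ADAM32 had 11.5 and 12.7 normalized reads in drug-tolerant a and b, against 13.4 in parental a and 2.95 and 3.12 in parental b and c. MMP16 had 7.94 and 5.07 normalized reads in drug-tolerant a and b, against 23.5 in parental a and 2.95 and 5.20 in parental b and c. MMP17, where parental a was the lowest parental library, had 5.29 and 3.80 normalized reads in drug-tolerant a and b, against 5.04 in parental a and 9.83 and 14.6 in parental b and c.

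**Figure D5:**
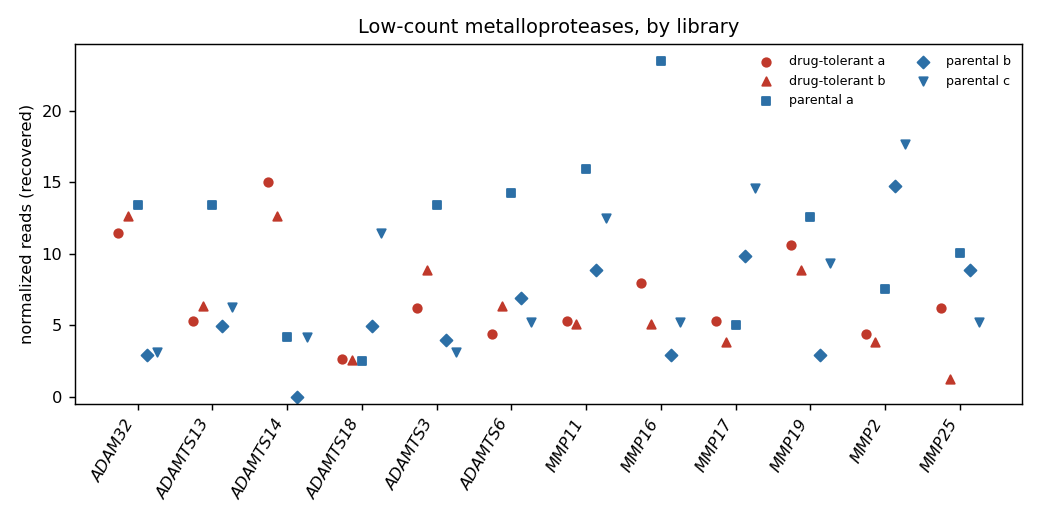
Normalized reads (y axis) recovered for each library of the 12 low-count ADAM, ADAMTS and matrix metalloprotease genes with at least 20 reads, drug-tolerant libraries in red and parental libraries in blue. MMP2 and MMP11 are lower and ADAMTS14 higher in both drug-tolerant libraries than in any parental one.

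Overlapping genes could add reads to a member where counting ignored strand, and whether counting used strand is not given in the sources used here. By level, the largest overlap was IAH1, on the strand opposite to ADAM17, with a mean of 205 in the authors' deposited table, 10.7% of the ADAM17 mean, at a log2 change of -0.43. The other overlapping genes with a row had less than 1% of their member's level. ADAM12 overlapped 2 pseudogenes, which have no row.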

How the data were processed

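RNA of 2 drug-tolerant and 3 parental PC9 libraries was isolated with TriZol and made into stranded mRNA libraries, per the labels' protocols. The submitters' processing notes name FastQC, STAR and DESeq2 and the build hg38; no version, counter, strand setting or annotation was given in the sources used here. As a signal, the authors deposited the mean level: reads over size factors, averaged across all libraries. The authors also deposited each log2 fold change with its standard error in log2 units, the Wald score that is their quotient, and the p-value of each gene, raw and adjusted. A gene is called at an adjusted p under 0.05. The authors' DESeq2 run gave low genes no adjusted p; the smallest mean level with one was 8.23. Deposited fold changes of low genes are understated: PDGFRB, with 2 reads in drug-tolerant a and 0 elsewhere, has a log2 value of 0.10.

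The members and lists were chosen with earlier results of these data known. Named genes are the 10 members, up to 4 genes per list with the smallest p and a mean level of at least 10, and called list genes; TNFRSF1A, TNF, IAH1, SYN1, SYN3, CD14, SPI1, KRT8, EPCAM, THY1, PDGFRB, PTPRC, CD3E and the low-count genes were named after their values were seen. CLDN5 and VWF were also named after their values were seen. Group levels were estimated from mean and fold change and share any such shrinkage. Intervals are the fold change ± the normal 95% width. Lengths, GC content and positions came from GENCODE 29 (GRCh38); the trend was cubic in log length and quadratic in GC over 15160 genes. Reads of low genes were resolved within 1.5e-09. The trend step recovered 100% of 200 simulated changed genes. Their simulated shifts were larger than the Wald scores of ADAM12 (4.15) and TIMP3 (4.44), so recovery of changes of that size was not tested. Promoters came from RefSeq (GRCh38.p14), with windows read for 8 of 10 members. Member windows on chromosome 8 were left out, which excluded ADAM9, and TIMP2 was not matched. Python 3.11.15, numpy 2.4.6 and pandas 2.3.3 were used. The edgeR test planned for counts was not run, since the table holds none.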

Additional observations from a re-analysis of the deposited data

How the results depend on the processing

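With an adjusted p under 0.01, 39 genes were called in place of 84, and 1 member, TIMP3, in place of 2. With the Wald score centred and scaled, 1 gene in all, 0 members and 0 of the 54 named genes (against 3) were called. With the length and GC trend removed, 1 member, TIMP3, was called. The median of the members stayed within 1 median standard error under the alternatives tried. No called gene changed sign, but 7 uncalled ones did: with the length and GC trend removed ADAM10 had -0.13, ADAM17 -0.038, COL1A1 -0.27, FRMD8 -0.045, LRP1 -0.27 and MBTPS1 -0.066, and with the Wald score centred PACS2 had 0.0047. Over single named genes and the alternatives on calls, 306 values kept their direction and their side of the threshold, 5 lost their call, 1 gained it and these 7 changed direction; the cause was not tested. Leaving out a replicate and another normalization could not be run. No paired analysis was possible because the deposited table holds no values per library and its columns carry no replicate numbers. Depth limits the genes under a mean level of 10.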
